A study of Mus musculus with 6 samples.

Results

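Mast cells and basophils share a small set of transcripts for the high-affinity IgE receptor, for histamine synthesis and for granule proteases, and 9 of these genes were followed in RNA from fetal liver (FL) progenitors with and without hnRNP L. The genes were *Cpa3*, *Mcpt8*, *Ms4a2*, *Fcer1a*, *Fcer1g*, *Prss34*, *Hdc*, *Gzmb* and *Cma1*, named as a list and matched by symbol to their mouse Ensembl identifiers. All 9 were among the 38293 genes with counts. Of these genes, 14396 had enough reads to be tested, including 8 of the 9, the exception being *Fcer1a*.

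The libraries came from sorted Lin- c-Kit+ FL cells of C57BL/6 embryos at embryonic day 14.5, the fraction that carries the stem cell factor receptor and lacks markers of mature blood lineages. There were 3 wt embryos and 3 hnRNP L deficient embryos, numbered here as replicates 1 to 3 of each genotype in the order of the samples, so that a shared number does not pair them. The labels give the latter only as knockout, and the study describes the sequenced cells as VavCre+ hnRNP L fl/fl, in which Cre under the Vav promoter deletes the floxed alleles in hematopoietic cells. The wt group is labelled wild-type, and elsewhere in the study the wt reads are given as hnRNP L fl/fl. Each library is labelled as 1 embryo, and its cells as FL cells, although a tissue label reads whole embryo. The antibody mix that removed mature cells held CD49b, a surface protein of basophils and NK cells, and, for FL, no CD11b.

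Mast cells and basophils arise from hematopoietic progenitors, and both bind IgE through a receptor made of an alpha chain (*Fcer1a*), a beta chain (*Ms4a2*) and a pair of gamma chains (*Fcer1g*). Crosslinking of this receptor releases granules that hold histamine, made by the histidine decarboxylase *Hdc*, and proteases. Carboxypeptidase A3 (*Cpa3*) and the chymase *Cma1* are typical of mast cells, *Mcpt8* and *Prss34* of mouse basophils. Mast cells and their precursors carry c-Kit, the receptor used for this sort. Some of the 9 transcripts are not confined to these cells: *Fcer1g* serves other Fc receptors of myeloid cells, *Gzmb* encodes granzyme B of cytotoxic lymphocytes, and *Cpa3* is also transcribed in early progenitors.

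Regulation of the lineage rests in part on GATA factors, which bind the word AGATAA, its variant that ends in G (AGATAG) and the forms of both that open with T (TGATAA and, ending in G, TGATAG). In the 250 bases before the RefSeq start (GRCm38.p6), at least 1 of these words was found on either strand in 6 of the 9 genes, against 26.5% of 32841 promoter windows of the same length, and no test was made of this. The 6 were *Cpa3*, *Ms4a2*, *Fcer1a*, *Prss34*, *Hdc* and *Cma1*. The word AGGAAGT, of the type bound by PU.1, was found in 0 of the 9 and in 7.69% of all windows. Windows of 4 genes are printed to show where the words lie, chosen to cover the receptor (*Ms4a2*, the only member with 3 matches), the basophil proteases (*Prss34*) and the mast cell proteases (*Cpa3* and *Cma1*). Each reads 5′ to 3′ on the strand of its gene and ends at the base before the start, and capitals mark the GATA words, which read as TTATCT, or in *Cma1* as the variant CTATCT, where they lie on the opposite strand.
Ms4a2 (chr19:11623720-11623969, minus strand): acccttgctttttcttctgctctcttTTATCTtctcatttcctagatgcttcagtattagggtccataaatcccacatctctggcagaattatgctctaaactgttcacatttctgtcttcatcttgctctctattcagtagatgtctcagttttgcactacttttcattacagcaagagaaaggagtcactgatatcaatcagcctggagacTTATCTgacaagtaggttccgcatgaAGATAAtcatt
Prss34 (chr17:25298144-25298393, plus strand): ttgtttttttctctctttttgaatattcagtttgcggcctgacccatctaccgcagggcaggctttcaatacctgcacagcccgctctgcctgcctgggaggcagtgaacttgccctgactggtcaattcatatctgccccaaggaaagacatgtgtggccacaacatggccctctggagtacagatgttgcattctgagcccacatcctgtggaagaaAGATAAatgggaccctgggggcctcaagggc
Cpa3 (chr3:20242182-20242431, minus strand): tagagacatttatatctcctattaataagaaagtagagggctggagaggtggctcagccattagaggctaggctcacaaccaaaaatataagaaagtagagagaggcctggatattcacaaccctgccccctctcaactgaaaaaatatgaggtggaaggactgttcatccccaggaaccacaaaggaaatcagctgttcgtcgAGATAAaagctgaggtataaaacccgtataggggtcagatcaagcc
Cma1 (chr14:55944676-55944925, minus strand): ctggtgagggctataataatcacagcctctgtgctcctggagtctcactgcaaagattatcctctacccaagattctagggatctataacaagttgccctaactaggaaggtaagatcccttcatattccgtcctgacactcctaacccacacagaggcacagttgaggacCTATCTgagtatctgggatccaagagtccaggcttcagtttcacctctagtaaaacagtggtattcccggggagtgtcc
The words of *Ms4a2* span bases -224 to -219 and -37 to -32 from the start on the opposite strand and -11 to -6 on its own. In *Cpa3* the word spans bases -46 to -41 and in *Prss34* bases -31 to -26, both on the gene's own strand. *Cma1* holds its word at -79 to -74 on the opposite strand. A match is a description of these letters, and no binding was measured.

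Between 55952160 and 76157226 reads per library were counted on genes, while 46.7% to 53.3% of the counted total were not assigned to a gene. *Hnrnpl* had 552, 531 and 528 CPM (reads per gene after scaling each library for its size and composition) in wt embryos 1 to 3 against 242, 288 and 270 CPM in deficient embryos 1 to 3. Its log2 fold change was -1.01 (SE 0.088, adjusted p = 0.00724 by edgeR's quasi-likelihood test with Benjamini-Hochberg adjustment). Among all 14396 genes tested, 19.2% were called at an adjusted p under 0.05, 1341 (9.32%) higher and 1418 (9.85%) lower in hnRNP L deficient cells. Scaling by total counts gave 1066 higher and 1750 lower. These calls depended on single libraries, since only 5 genes were called higher and 0 lower without wt replicate 3, and at most 15 and 2 without any one of the hnRNP L deficient libraries. Wt replicate 2 stood apart in the genes described here. Values of the members are therefore given with and without it, and values of other named genes without it where a call or the size of the change depended on it.

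None of the 8 members tested was called, 0 higher (9.32% of all genes tested) and 0 lower (9.85%) by edgeR, and the genotypes overlapped in all 8, while 22.7% of all genes lay entirely below wt and 22.7% entirely above. With an unadjusted p under 0.05 there was 1 member, *Prss34*, against 37.6% of all genes. DESeq2 called 1 member, *Cma1*, and 29.9% of all genes, and gave no p for *Mcpt8* and *Prss34*. Limma-voom called 0 members and 36.7% of all genes. For no member did the difference between genotypes exceed the spread between embryos by the edgeR test, and this spread was wide. In bulk RNA, fewer cells of a type and less RNA per cell cannot be told apart, and this holds for every value that follows.

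**Figure D1:**
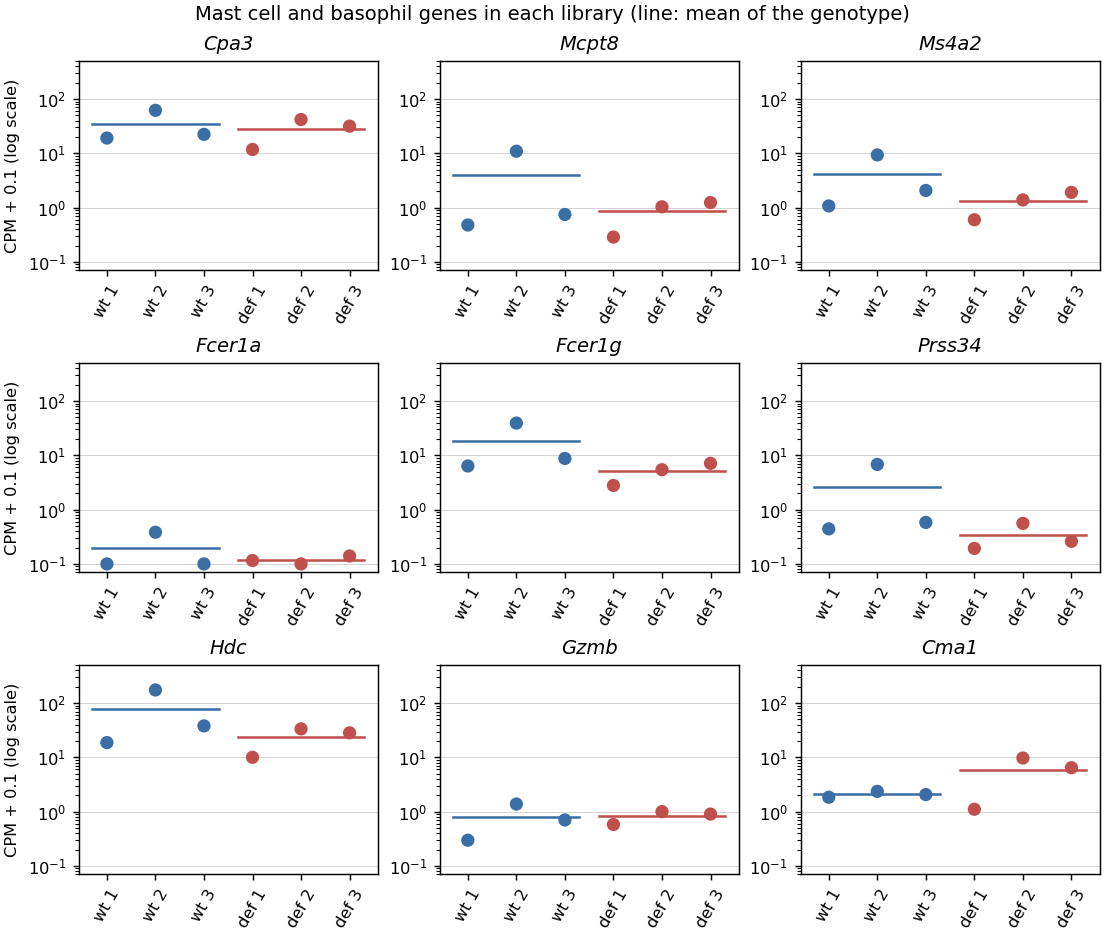
CPM plus 0.1 on a log axis for each of the 9 genes, with 1 point per library and a line at the mean of each genotype (blue, wt; red, hnRNP L deficient, def). Wt replicate 2 is the highest point for 8 of the 9 genes, while *Cma1* is highest in hnRNP L deficient replicates 2 and 3.

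The receptor subunits were detected to very different extents. *Ms4a2* (ENSMUSG00000024680, chr19:11615523-11623719, minus strand), the beta chain, had 0.972, 9.24 and 1.97 CPM in wt embryos 1 to 3 against 0.497, 1.29 and 1.81 CPM in deficient embryos 1 to 3. Wt replicate 2 was far above all others, and the remaining 5 libraries overlapped. The log2 fold change, hnRNP L deficient over wt, was -1.76 (SE 0.91, edgeR adjusted p = 0.207) with an exact permutation p of 0.4, where 3 libraries against 3 cannot go below 0.1. Without wt replicate 2 it was -0.30.

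*Fcer1g* (ENSMUSG00000058715, chr1:171229572-171234365, minus strand), the gamma chain, had 6.27, 39.3 and 8.67 CPM in the wt embryos against 2.69, 5.34 and 7.03 CPM in the deficient embryos. Again wt replicate 2 was highest and hnRNP L deficient replicate 1 lowest, and only wt replicate 1 kept the genotypes from separating. Its log2 fold change was -1.85 (SE 0.80, edgeR adjusted p = 0.155; exact permutation p = 0.2) and was -0.57 without wt replicate 2.

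*Fcer1a* (ENSMUSG00000005339, chr1:173221284-173227214, minus strand), the alpha chain that binds IgE itself, was almost absent. It had 0, 17 and 0 reads in wt embryos 1 to 3 against 1, 0 and 3 reads in deficient embryos 1 to 3. The 17 reads of wt replicate 2 correspond to 0.283 CPM, with an exact Poisson 95% interval of 0.165 to 0.454 CPM that covers counting error only. Where no read was counted, the limit used is 3 reads, a one-sided limit and so lower than the upper end of such an interval. It allows up to 0.0540 CPM in wt replicate 1, 0.0413 CPM in wt replicate 3 and 0.0459 CPM in hnRNP L deficient replicate 2. The gene was not tested, and a difference between genotypes was not detectable at this depth.

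*Hdc* (ENSMUSG00000027360, chr2:126593667-126619299, minus strand), the enzyme that makes histamine, had the most reads of the 9 genes summed over the libraries, a sum carried by wt replicate 2. *Cpa3* had more reads than *Hdc* in 4 of the 6 libraries, wt replicate 1 and all hnRNP L deficient ones. The *Hdc* values were 18.7, 175 and 38.0 CPM in the wt embryos against 9.96, 33.5 and 28.3 CPM in the deficient embryos. The wt libraries spanned 9.36-fold and the hnRNP L deficient libraries 3.36-fold, so that the genotypes overlapped, with wt replicate 1 below hnRNP L deficient replicates 2 and 3. The log2 fold change of -1.69 (SE 0.97, edgeR adjusted p = 0.264; exact permutation p = 0.4) went to -0.25 without wt replicate 2.

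The basophil proteases had the widest spread among wt embryos. *Mcpt8* (ENSMUSG00000022157, chr14:56082166-56085273, minus strand), a serine protease used to mark mouse basophils, had 0.378, 10.8 and 0.647 CPM in wt embryos 1 to 3 against 0.186, 0.933 and 1.14 CPM in the deficient embryos. In wt replicate 2 it was 21.2 times the mean of the other wt libraries, while hnRNP L deficient replicates 2 and 3 were above wt replicates 1 and 3. The log2 fold change of -2.38 (SE 1.43, edgeR adjusted p = 0.277; exact permutation p = 0.6) became 0.55 without wt replicate 2 and 0.11 by limma-voom with sample weights, so that its sign was not fixed.

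*Prss34* (ENSMUSG00000056399, chr17:25298394-25300165, plus strand), a tryptase-type protease of basophils, had 0.342, 6.70 and 0.482 CPM in the wt embryos against 0.0932, 0.459 and 0.161 CPM in the deficient embryos. Apart from wt replicate 2 all values were at most 0.482 CPM, and hnRNP L deficient replicate 2 lay between wt replicates 1 and 3. Its log2 fold change was the most negative of the 8, at -3.39 (SE 1.35, edgeR p = 0.0451, adjusted p = 0.124; exact permutation p = 0.2). Without wt replicate 2 the change was -0.80.

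Of the mast cell proteases, *Cpa3* had nearly the library order of *Mcpt8* over a narrower range, and *Cma1* had another order. *Cpa3* (ENSMUSG00000001865, chr3:20215620-20242181, minus strand) had 19.0, 61.8 and 22.3 CPM in the wt embryos against 11.7, 41.8 and 31.6 CPM in the deficient embryos. Wt replicate 2 was again highest, and hnRNP L deficient replicates 2 and 3 exceeded the other wt libraries, as for *Mcpt8*. The log2 fold change was -0.28 (SE 0.65, edgeR adjusted p = 0.790; exact permutation p = 0.8). It turned to 0.46 without wt replicate 2, to 0.10 without hnRNP L deficient replicate 1 and to 0.37 by limma-voom.

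*Cma1* (ENSMUSG00000022225, chr14:55941451-55944675, minus strand) was the only member with its highest values in hnRNP L deficient cells. It had 1.75, 2.27 and 1.97 CPM in the wt embryos against 1.01, 9.65 and 6.36 CPM in deficient embryos 1 to 3. Replicates 2 and 3 were above all wt libraries and replicate 1 below them. The log2 fold change was 1.51 (SE 0.71, edgeR adjusted p = 0.174; exact permutation p = 0.4), with an adjusted p of 0.0499 by DESeq2 and between 0.0499 and 0.436 over all alternatives. It was 2.01 without hnRNP L deficient replicate 1, with an edgeR adjusted p of 0.0598, and 0.90 without hnRNP L deficient replicate 2.

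*Gzmb* (ENSMUSG00000015437, chr14:56258838-56262260, minus strand), granzyme B, was low throughout. Its values were 0.198, 1.28 and 0.606 CPM in the wt embryos against 0.481, 0.903 and 0.804 CPM in the deficient embryos. All hnRNP L deficient values lay within the wt range, and the log2 fold change was 0.07 (SE 0.63, edgeR adjusted p = 0.950; exact permutation p = 0.8). Without wt replicate 1 it was -0.36 and without wt replicate 2 it was 0.84. Of the 8 NK and cytotoxic T cell markers, *Ncr1* and *Cd8a* were at 0 in all 6 libraries, and *Gzma*, *Prf1*, *Klrd1*, *Klrb1c* and *Cd3e* had too few reads to be tested. *Nkg7* was tested and not called (log2 fold change -2.20, and -0.31 without wt replicate 2), and made up nearly all of the summed level of the list, which was 3.31, 50.2 and 8.08 CPM in wt against 2.73, 5.45 and 5.51 CPM in hnRNP L deficient cells.

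Levels can be compared between genes only per length. Per kilobase of annotated exon, the mean wt level was 22.6 CPM for *Cpa3*, 20.7 for *Fcer1g* and 12.1 for *Hdc*, followed by 3.96 for *Mcpt8*, 2.06 for *Prss34*, 1.83 for *Cma1*, 1.44 for *Ms4a2*, 0.485 for *Gzmb* and 0.0947 for *Fcer1a*. Much of this order came from wt replicate 2, where *Fcer1g* (44.9) and *Cpa3* (40.7) led. In hnRNP L deficient cells the mean per kilobase was 18.7 CPM for *Cpa3*, 5.74 for *Fcer1g*, 5.21 for *Cma1* and 3.74 for *Hdc*, and all others were below 1. Over the wt embryos the ranges of *Cpa3*, *Fcer1g* and *Hdc* overlapped one another, as did those of *Mcpt8*, *Prss34*, *Cma1* and *Ms4a2*. Those of *Fcer1g* and *Hdc* also overlapped that of *Mcpt8*. Over the hnRNP L deficient embryos the ranges of *Fcer1g*, *Cma1* and *Hdc* overlapped one another. There the range of *Cpa3* overlapped those of *Fcer1g* and *Cma1*, and that of *Cma1* also reached the range of *Mcpt8*. *Fcer1a* was below every other member in each of the 6 libraries.

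The spread between embryos was the main property of these genes. On the log2(CPM + 0.1) scale the median SD over the 8 members was 1.50 between wt embryos and 0.90 between hnRNP L deficient embryos. Over all genes tested the medians were 0.227 and 0.0922. Both genotypes therefore varied more in these genes than in the typical gene, and the SD was larger in wt for 6 of the 8 members and for 82.1% of all genes. The genes compared were not matched for level, and counting error adds to the SD of members with few reads, such as *Prss34*, *Mcpt8* and *Gzmb*.

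The SD between wt embryos lay at the 93.0 percentile of all genes for *Cpa3* and at the 99.6 percentile for *Mcpt8*, and the other members except *Cma1* fell between them. *Cma1* was the reverse, with a wt SD of 0.18 at the 39.0 percentile and an SD of 1.67 between hnRNP L deficient embryos at the 99.6 percentile. Its wt libraries spanned 1.30-fold and its hnRNP L deficient libraries 9.56-fold.

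**Figure D2:**
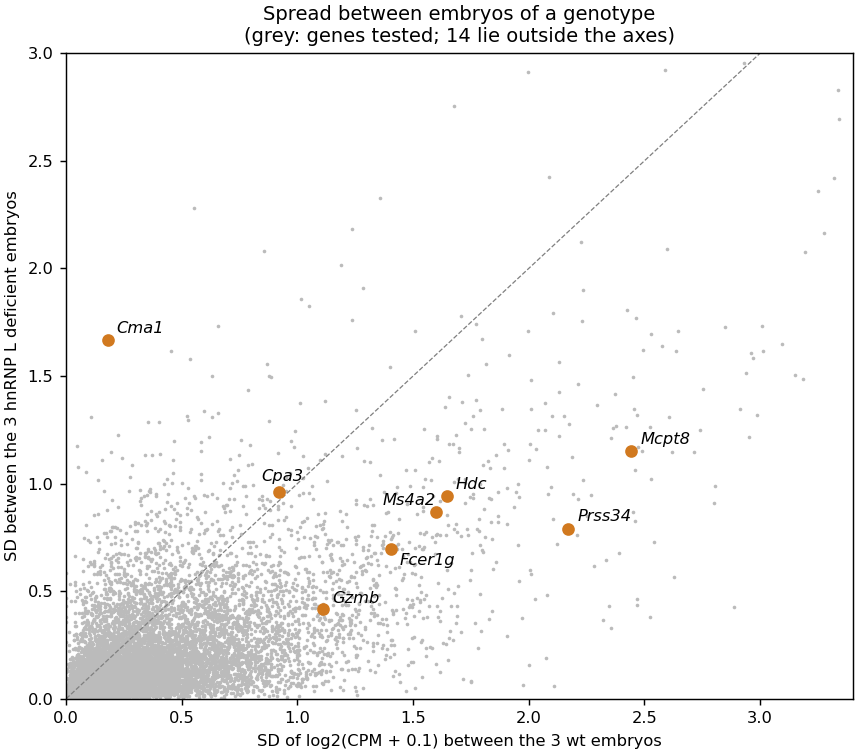
SD of log2(CPM + 0.1) between the 3 wt embryos (x axis) and between the 3 hnRNP L deficient embryos (y axis) for the 14396 genes tested (grey, 14 outside the axes) and the 8 members (orange); the dashed line marks equal SD. The 6 members with the larger SD in wt lie to the right of the line, *Cpa3* next to it, and *Cma1* far above it.

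The order of the embryos was shared across members. Wt replicate 2 was the highest of the 6 libraries for 7 of the 8 members tested, against 31.7% of all genes, and hnRNP L deficient replicate 1 was the lowest for 7 of 8, against 19.7%. Within wt, replicate 2 was highest for all 8 (39.9% of all genes) and replicate 1 lowest for all 8 (37.9%), and within hnRNP L deficient embryos replicate 1 was lowest for all 8 (39.8%). Replicate 1 was lowest in both genotypes at once for 18.2% of all genes. In the labels, the embryo numbers of wt replicate 1 and hnRNP L deficient replicate 1 share their first part, as do those of hnRNP L deficient replicates 2 and 3, and no source says what this part stands for. Between those 2 replicate 1 embryos alone, the log2 difference, hnRNP L deficient minus wt, was between -1.19 and -0.70 for 7 members and 0.96 for *Gzmb*. Summed over the 9 genes, the libraries held 47.6, 306 and 74.6 CPM in wt against 26.6, 93.8 and 77.2 CPM in hnRNP L deficient cells, and these ranges overlapped.

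The similarity of 2 genes over the libraries was measured as the root mean square (RMS) difference of their centred log2(CPM + 0.1) values over the 6 libraries, as a description. *Ms4a2* was closest to *Hdc* (0.213) and *Fcer1g* (0.217), and the largest distance was between *Cma1* and *Prss34* (1.99). Among 11618 genes with a mean of at least 1 CPM, the 5 closest to *Hdc* were *Gpr141* (0.169), *Rdh12* (0.171), *Tlr4* (0.188), *Lrrk2* (0.198) and *Ms4a2*. *Tlr4*, the receptor for bacterial lipopolysaccharide on myeloid cells, had 0.810, 8.37 and 1.58 CPM in wt against 0.513, 1.24 and 1.17 CPM in hnRNP L deficient cells. The 5 closest to *Cpa3* were *Rasgrp4* (0.228), *Ypel4* (0.268), *Hbb-bs* (0.292), *Serpinb10* (0.295) and *Hba-a1* (0.325). *Rasgrp4*, an exchange factor for Ras found in mast cells, had 1.42, 4.35 and 1.02 CPM in wt against 0.590, 2.54 and 2.25 CPM in the deficient embryos.

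**Figure D3:**
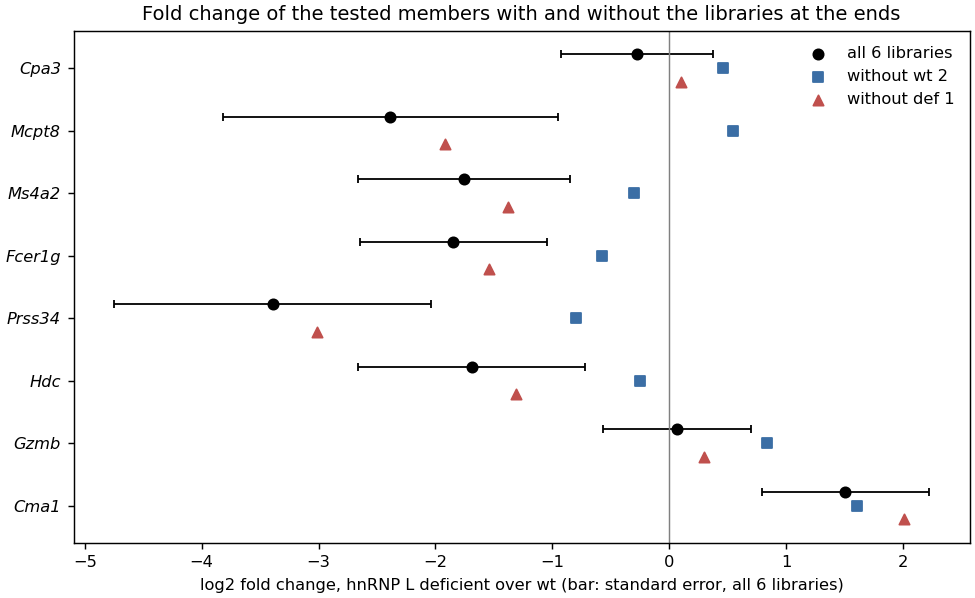
Log2 fold change, hnRNP L deficient over wt, of the 8 members tested with all 6 libraries (black, bar is the standard error), without wt replicate 2 (blue squares) and without hnRNP L deficient replicate 1 (red triangles). Leaving out wt replicate 2 moves all 8 members upward, *Mcpt8* from -2.38 to 0.55, and *Cma1* by the least, from 1.51 to 1.61.

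Over the 8 members the median log2 fold change was -1.72, against -0.03 over all genes tested, and 6 of 8 were negative against 52.5% of all genes. Without wt replicate 2, 0 members were called and the values ranged from -0.80 (*Prss34*) to 1.61 (*Cma1*).

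*Cma1* lies in a cluster of chymase and granzyme genes on chromosome 14, together with *Mcpt8* and *Gzmb*. Of 12 neighbours listed for this cluster, 2 were tested and 0 called (edgeR), 0 of them at an unadjusted p under 0.05, and DESeq2 called 0. *Mcpt1*, *Mcpt2* and *Cma2* had reads almost only in hnRNP L deficient replicates 2 and 3. *Mcpt1*, a chymase of mucosal mast cells, had 28 and 54 reads there and 0 in each of the other 4 libraries. *Mcpt2* had 22 and 76 reads, with 2 in wt replicate 3 and 0 in the others, and *Cma2* 12 and 11 reads with 0 in the others. These genes are close relatives of one another, and whether reads were lost or misassigned among them was not examined. *Mcpt4*, a chymase of connective tissue mast cells, had 5, 0 and 30 reads in wt and 0, 35 and 108 reads in hnRNP L deficient libraries, which overlapped (log2 fold change 1.93, SE 1.60, edgeR adjusted p = 0.416). *Ctsg*, cathepsin G of neutrophil precursors, was highest in wt replicate 2, with 18.8, 487 and 59.1 CPM in wt against 9.01, 43.2 and 40.2 CPM in hnRNP L deficient cells. *Mcpt9* and the granzymes C to G and N were at 0 in all libraries.

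The tryptases *Tpsb2*, *Tpsg1* and *Tpsab1* were, like *Cma1*, highest in hnRNP L deficient replicates 2 and 3, while the order of the other libraries differed. *Tpsb2*, a tryptase of mast cell granules, had 0.702, 1.27 and 1.29 CPM in wt against 0.761, 6.90 and 4.77 CPM in deficient embryos 1 to 3. Replicates 2 and 3 were above all others and replicate 1 was within the wt range, and the log2 fold change was 1.93 (SE 0.73, edgeR adjusted p = 0.107). *Tpsg1* had 0, 0.267 and 0.206 CPM in wt against 0.0777, 2.05 and 0.978 CPM in deficient cells (log2 fold change 2.68, SE 1.28, edgeR adjusted p = 0.177). *Tpsab1*, close in sequence to *Tpsb2*, had 25 and 16 reads in hnRNP L deficient replicates 2 and 3 and 0 elsewhere, and was not tested. Of the 6 genes listed for the tryptase cluster, 2 were tested and 0 called by edgeR, with 1 at an unadjusted p under 0.05, while DESeq2 called 1. Over all genes tested, 10% had hnRNP L deficient replicates 2 and 3 both above the other 4 libraries, and *Cma1* was the 1 member with this order. The mast cell receptors *Mrgprb1* and *Mrgprb2* were at 0 in all 6 libraries.

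Markers of other granulocytes were, like most members, highest in wt replicate 2. The 8 neutrophil precursor markers summed to 558, 8007 and 1445 CPM in wt embryos 1 to 3 against 237, 891 and 880 CPM in deficient embryos 1 to 3, and the 5 eosinophil markers to 11.8, 510 and 45.8 CPM against 9.74, 48.4 and 43.0 CPM. Wt replicate 2 was highest for 6 of the 8 and for 5 of the 5. *Mpo*, the peroxidase of neutrophil granules, had 471, 5615 and 1165 CPM in wt against 191, 568 and 537 CPM in hnRNP L deficient cells, and *Prg2*, a major granule protein of eosinophils, had 4.54, 373 and 26.2 CPM against 5.13, 32.1 and 29.9 CPM. The 2 exceptions were *Ltf* and *Ngp*, of late neutrophil granules, whose highest values were in hnRNP L deficient replicates 2 and 3, as for *Cma1*. *Ltf* had 1.21, 9.66 and 3.81 CPM in wt against 0.823, 36.8 and 44.6 CPM in hnRNP L deficient cells. The log2 fold change of *Mpo* went from -2.48 to -0.92 without wt replicate 2 and that of *Prg2* from -2.59 to 0.54. None of the neutrophil or eosinophil markers was called by edgeR, with 0 neutrophil and 2 eosinophil markers at an unadjusted p under 0.05.

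The 7 monocyte and macrophage markers summed to 22.7, 109 and 45.0 CPM in wt against 7.05, 12.9 and 12.3 CPM in hnRNP L deficient cells. Of these, 3 of 7 fell (*Csf1r*, *Ly86* and *C1qa*), against 9.85% of all genes tested. *C1qa* did not pass without wt replicate 2 (edgeR adjusted p = 0.0529). The part of these cells in the values of the members was not tested. Of 6 further basophil markers 5 were tested and 0 called (edgeR), with 2 at an unadjusted p under 0.05, and their sum was 4.93, 24.3 and 9.18 CPM in wt against 4.83, 7.19 and 5.49 CPM in hnRNP L deficient cells. *Itga2*, which encodes the CD49b used to remove cells, was low, at 0.792, 0.484 and 1.22 CPM in wt against 0.249, 0.367 and 0.429 CPM in hnRNP L deficient cells. These did not overlap, and the log2 fold change of -1.26 did not pass (edgeR adjusted p = 0.0884). Without wt replicate 2, where 24.1% of all genes were called, *Itga2* passed at -1.53 (edgeR adjusted p = 0.0366). The summed level of the erythroid markers varied less, from 1718 to 2161 CPM in wt and from 1747 to 2071 CPM in hnRNP L deficient cells. A single marker could vary more than the sum. *Hba-a1* had 96.2, 160 and 106 CPM in wt against 51.8, 149 and 115 CPM in hnRNP L deficient cells. Markers of hepatocytes, which are not hematopoietic, were present at 154, 104 and 222 CPM in wt against 20.1, 68.2 and 64.0 CPM in hnRNP L deficient cells, and 1 of 4 fell (*Ttr*). All 4 lay entirely below wt, as did 22.7% of all genes. By edgeR 3 of the 4 had an unadjusted p under 0.05, against 37.6% of all genes. Of 6 megakaryocyte markers 1 rose (*Gp1ba*) and 1 fell (*Vwf*), and of 2 B lineage markers tested 0 were called and 1 had an unadjusted p under 0.05. Over all genes tested 9.32% rose and 9.85% fell, and 1 gene in lists as short as these cannot be told apart from such shares.

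Among markers of stem and multipotent progenitors, cells in which *Cpa3* is also transcribed, *Cd34*, *Flt3* and *Hlf* fell. Some other markers of the list did not pass, and 9.85% of all genes tested were called lower. The genotypes did not overlap in *Cd34*, *Flt3* or *Hlf*, while 22.7% of all genes lay entirely below wt. *Cd34*, a surface protein of hematopoietic progenitors, had 94.8, 234 and 123 CPM in wt embryos 1 to 3 against 28.5, 35.0 and 34.0 CPM in deficient embryos 1 to 3, a log2 fold change of -2.21 (SE 0.35, edgeR adjusted p = 0.0171). *Flt3*, a cytokine receptor of multipotent and lymphoid progenitors, had 17.8, 44.0 and 28.2 CPM in wt against 2.86, 3.397 and 2.56 CPM in deficient embryos 1 to 3, a change of -3.35 (SE 0.34, edgeR adjusted p = 0.00985). *Hlf*, a transcription factor of stem cells, had 16.5, 26.8 and 22.1 CPM in wt against 8.25, 9.90 and 6.67 CPM in deficient embryos, with a change of -1.40 (SE 0.22, edgeR adjusted p = 0.0148). In wt these genes had the order of *Cpa3*, with replicate 2 highest and replicate 1 lowest. Unlike *Cpa3*, they passed without wt replicate 2, with log2 fold changes of -1.74, -2.97 and -1.22 for *Cd34*, *Flt3* and *Hlf*. Their part in the values of *Cpa3* was not tested.

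**Figure D4:**
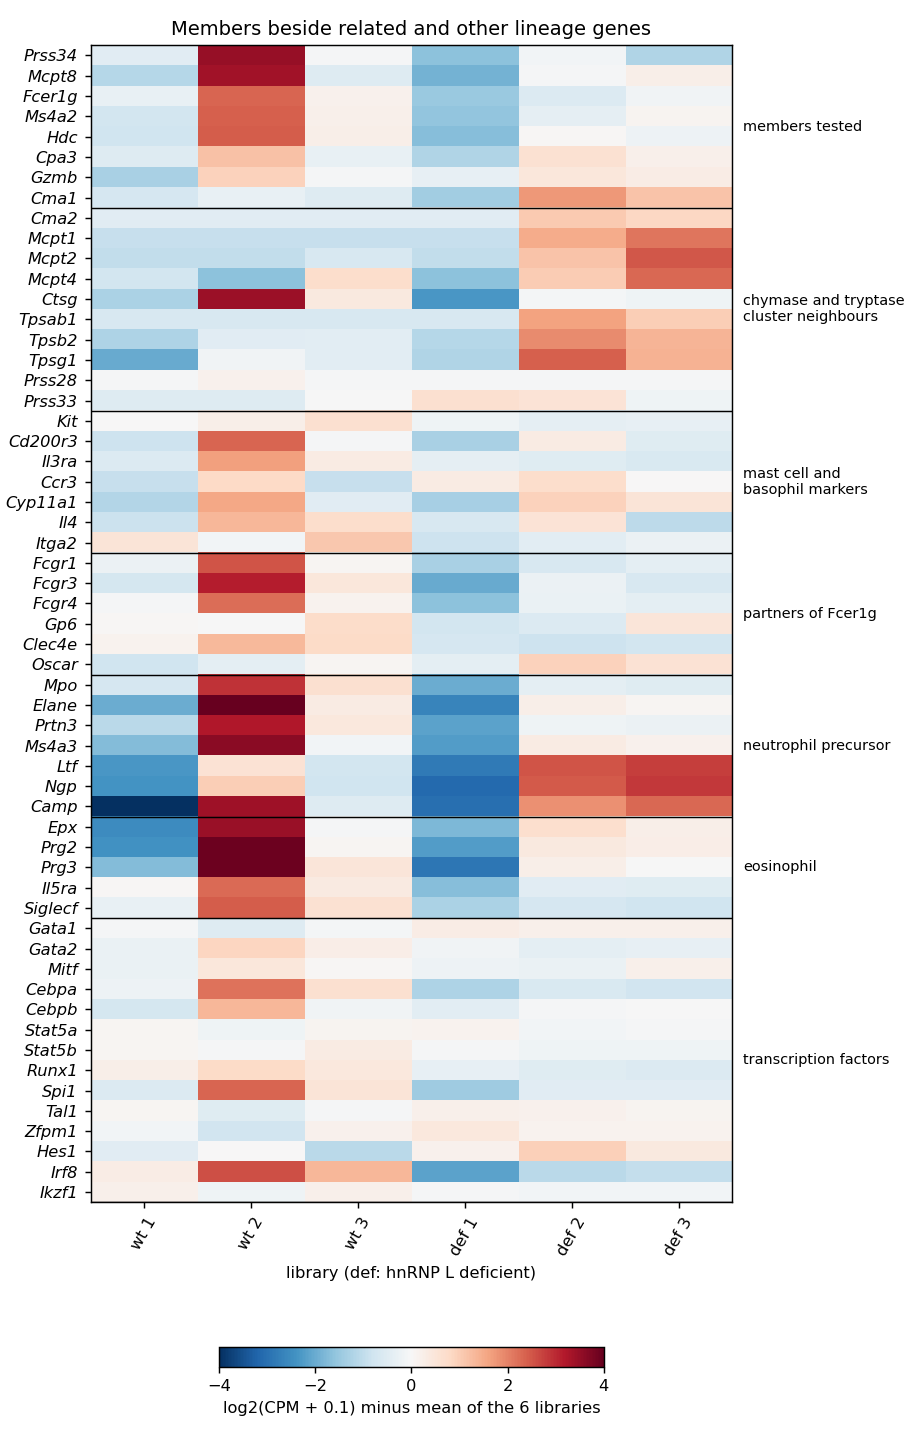
Log2(CPM + 0.1) minus the mean over the 6 libraries (red, above; blue, below) for the 8 members tested and for the listed genes with at least 1 read, 1 column per library (def, hnRNP L deficient). Most members share the red column of wt replicate 2 with neutrophil and eosinophil genes, whereas *Cma1*, the tryptases *Tpsab1*, *Tpsb2* and *Tpsg1* and the chymases *Cma2*, *Mcpt1* and *Mcpt2* are red in hnRNP L deficient replicates 2 and 3.

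Genes that act with the members were counted from lists of IgE receptor signalling, granule and mediator synthesis, surface receptors, transcription factors, the protease clusters and receptors that use the gamma chain. Of the 90 genes listed 69 were tested, and edgeR called 3 higher and 9 lower in hnRNP L deficient cells. The 12 called were 17.4% of those tested, near the 19.2% of all genes, with 4.35% higher (9.32% of all genes) and 13.0% lower (9.85%). DESeq2 called 28 and limma-voom 34 of the listed genes, tools that called 29.9% and 36.7% of all genes. Leaving out 1 library gave 30 listed genes without wt replicate 1, where 32.4% of all genes were called, 22 without wt replicate 2 (24.1% of all genes) and 0 in every list without wt replicate 3 or any one of the hnRNP L deficient libraries.

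In IgE receptor signalling 1 of 21 genes rose and 4 fell, together 23.8% against the 19.2% of all genes, while the lists of granule genes (15.4%), surface receptors (15.4%) and transcription factors (14.3%) had smaller shares. The adaptor *Gab2* had 46.0, 37.7 and 33.3 CPM in wt against 65.9, 67.2 and 71.7 CPM in hnRNP L deficient cells, without overlap (log2 fold change 0.81, SE 0.12, edgeR adjusted p = 0.0144). The phosphatase *Inpp5d*, an inhibitor of the pathway, had 120, 144 and 137 CPM in wt against 92.7, 88.3 and 87.3 CPM in deficient cells (log2 fold change -0.58, SE 0.09, edgeR adjusted p = 0.0141). *Plcg1* and *Pik3cg*, which carry the signal on, fell by 0.89 and by 1.26 on the log2 scale, and the adaptor *Lat2* fell by 2.24. *Lat2* did not pass without wt replicate 2 (log2 fold change -1.48, edgeR adjusted p = 0.0545). *Btk*, a kinase of the pathway, had 127, 140 and 120 CPM in wt against 136, 143 and 149 CPM in hnRNP L deficient cells, and did not pass.

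Among 13 granule and mediator genes 1 rose and 1 fell. *Slc18a2*, which loads amines such as histamine into granules, had 8.30, 22.3 and 15.3 CPM in wt against 4.38, 5.83 and 4.15 CPM in hnRNP L deficient cells, without overlap (log2 fold change -1.67, SE 0.35, edgeR adjusted p = 0.0248). *Vamp8*, a protein of granule fusion, rose from 152, 168 and 153 CPM to 187, 193 and 200 CPM (log2 fold change 0.29, SE 0.07, edgeR adjusted p = 0.0346). *Srgn*, the proteoglycan core that holds granule proteases, had 89.7, 496 and 133 CPM in wt against 49.7, 76.2 and 70.0 CPM in hnRNP L deficient cells. These did not overlap, yet the change of -1.87 did not pass (SE 0.71, edgeR adjusted p = 0.119), and was -0.77 without wt replicate 2 (edgeR adjusted p = 0.0571).

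Of 13 surface receptors 1 rose and 1 fell. *Kit*, the receptor of the sort, had 423, 488 and 656 CPM in wt against 368, 325 and 330 CPM in deficient cells (log2 fold change -0.62, SE 0.16, edgeR adjusted p = 0.0402). *Il1rl1*, an alarmin receptor of mast cells and basophils, had 41.9, 44.9 and 58.5 CPM in wt against 71.6, 77.5 and 73.0 CPM in hnRNP L deficient cells, all of them above the wt libraries (log2 fold change 0.61, SE 0.13, edgeR adjusted p = 0.0247). *Csf2rb*, the shared beta chain of the interleukin receptors of these cells, followed wt replicate 2, with 13.6, 96.8 and 24.2 CPM in wt against 5.70, 13.7 and 12.8 CPM in hnRNP L deficient cells. The *Csf2rb* change was -2.07 on the log2 scale and -0.82 without wt replicate 2, and neither passed.

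Of 14 transcription factors 0 rose and 2 fell. *Runx1*, a regulator of definitive hematopoiesis, had 76.7, 111 and 87.4 CPM in wt against 51.8, 46.5 and 44.6 CPM in deficient cells (log2 fold change -0.95, SE 0.14, edgeR adjusted p = 0.0142). *Irf8*, required for monocytes and for basophil and mast cell progenitors, had 11.4, 55.9 and 23.4 CPM in wt against 2.03, 4.35 and 4.80 CPM in deficient cells (log2 fold change -3.02, SE 0.68, edgeR adjusted p = 0.0343). *Gata1*, the erythroid and mast cell GATA factor, was lowest in wt replicate 2, with 251, 181 and 248 CPM in wt against 318, 299 and 298 CPM in hnRNP L deficient cells, and did not pass (edgeR adjusted p = 0.0601). It passed without wt replicate 2, at 0.29 on the log2 scale (edgeR adjusted p = 0.0199). *Gata2* and *Cebpa*, named after their values were seen, are regulators of mast cells and of granulocytes. *Gata2* had 41.3, 90.1 and 59.9 CPM in wt against 44.6, 37.4 and 39.3 CPM in hnRNP L deficient cells, and *Cebpa* 12.9, 66.4 and 23.0 CPM against 6.26, 9.75 and 8.64 CPM, and neither passed. *Cebpa* passed without wt replicate 2 (log2 fold change -1.13 in place of -2.05, edgeR adjusted p = 0.0252) and *Gata2* did not (-0.32 in place of -0.66).

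Among receptors that signal through the *Fcer1g* chain, 4 of 6 were tested and 1 fell. *Clec4e* had 2.99, 6.80 and 4.73 CPM in wt against 1.68, 1.50 and 1.59 CPM in deficient cells (log2 fold change -1.61, SE 0.32, edgeR adjusted p = 0.0218). *Fcgr3*, an Fc receptor for IgG, had 8.98, 128 and 20.1 CPM in wt against 3.51, 12.4 and 9.20 CPM in hnRNP L deficient cells. The order of the embryos was that of *Fcer1g* in wt, and the change of *Fcgr3* did not pass (log2 fold change -2.65, SE 1.15, edgeR adjusted p = 0.162), and was -0.80 without wt replicate 2.

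Reads on exon bins, stretches of exon shared by the same transcripts, were used from the 3 wt libraries and from hnRNP L deficient replicates 2 and 3. The members had 75 bins, none merged with another gene, and 63 had a mean of at least 10 reads. None was called for a change in usage, 0 by edgeR's diffSpliceDGE and 0 by limma's diffSplice, against 0.0288% of the 176996 bins tested. The spread of a whole gene between embryos entered the variance of each of its bins. Bin 13 of *Hdc*, with a usage change of 1.30 on the log2 scale, had an unadjusted diffSpliceDGE p of 0.465. For members with such spread, the absence of calls does not show that usage was unchanged. With an unadjusted p under 0.05 there was 1, bin 5 of *Cma1*. It had 5, 2 and 15 reads in wt and 79 and 92 reads in hnRNP L deficient replicates 2 and 3, while bin 2 of the same gene had 62, 91 and 86 and then 384 and 243 reads. Its usage relative to the other bins was 1.38 higher on the log2 scale in hnRNP L deficient cells (unadjusted p = 0.0263 and adjusted p = 1.00 by diffSpliceDGE). *Cpa3*, *Mcpt8* and *Cma1* had reads on every bin in all 5 libraries. *Prss34* had reads on 5 of 5 bins in 4 libraries and on 2 of 5 in hnRNP L deficient replicate 3, where it had 23 bin reads in all.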

How the data were processed

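RNA of sorted Lin- c-Kit+ FL cells was sequenced from 3 wt and 3 hnRNP L deficient embryos with a stranded mRNA kit. The authors aligned reads to GRCm38 with Tophat 2.0.10, used HTSeq for reads per Ensembl gene, counted exon bins as well, and deposited raw counts without normalization. The strand option of the counting and the Ensembl release are not given in the sources used here. For hnRNP L deficient replicate 1, exon bins were not analysed here. Groups follow the genotype labels, and replicates are numbered in the order of the samples. Some listed marker genes are not reported here.

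Gene counts were analysed in R 4.3.3 with edgeR 4.0.16 (TMM, default expression filter, robust quasi-likelihood test, Benjamini-Hochberg adjustment over all 14396 genes tested, called at an adjusted p under 0.05). The SE is the size of the log2 fold change over the square root of F. CPM are counts over the TMM-scaled library size, and spread used log2(CPM + 0.1). Exact permutation tests were two-sided. The test of exon usage was diffSpliceDGE, on bins averaging 10 or more reads. Alternatives were DESeq2 1.42.0, limma 3.58.1 (voom with sample weights), other scalings, filters and pseudocounts, and leaving out each library. The steps were tested on simulated data.

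The members and the lists were chosen with earlier results of these data known. From each list, up to 6 genes could be named, those called first and then the others by mean CPM. For likeness of pattern, the 5 closest genes were taken for the member with the highest mean CPM and for *Cpa3*. Gene positions and exon lengths are from GENCODE (GRCm38) and promoter windows from RefSeq (GRCm38.p6). At 55952160 to 76157226 reads on genes per library, 3 reads correspond to 0.0402 to 0.0540 CPM. Reads carried no molecular identifiers, so intervals and floors cover counting error only. No source says that the embryos came from separate litters, so p-values measure the spread between these 6 libraries.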

Additional observations from a re-analysis of the deposited data

How the results depend on the processing

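No member was called by edgeR under any other scaling, filter or dispersion setting or without any one library, and limma-voom called 0. DESeq2 called 1 member (*Cma1*), 2064 genes higher and 2236 lower, and 28 genes of the fixed lists. It gave no p, adjusted or not, for *Mcpt8* and *Prss34*. Limma-voom with sample weights called 2537 genes higher, 2751 lower and 34 genes of the lists. Leaving out 1 library at a time gave between 5 and 2312 genes called higher, between 0 and 2479 lower, between 0 and 30 genes of the lists, and 0 members each time. The counts fell to near 0 without wt replicate 3 or any one hnRNP L deficient library, and the cause was not tested. The sign of *Gzmb*, 0.07 in the fit of all libraries, turned with total counts (-0.016) and ranged from -0.36 to 0.84 when 1 library was left out. *Cpa3* turned to 0.37 and *Mcpt8* to 0.11 by limma-voom. Without 1 library *Cpa3* ranged from -0.65 to 0.46 and *Mcpt8* from -2.91 to 0.55. *Ms4a2*, *Fcer1g*, *Prss34*, *Hdc* and *Cma1* kept their sign in every setting. The median SD of the members between hnRNP L deficient embryos was 0.52 with log2(CPM + 1) in place of 0.90, a pseudocount that compresses low genes. *Gzmb* fell below a filter of 1 CPM and has no value there. No paired analysis was possible because the labels give no replicate numbers, the numbers 1 to 3 used here follow the order of the samples, and the first part of the embryo number is shared by only 1 pair across genotypes, wt replicate 1 and hnRNP L deficient replicate 1. Depth limited *Fcer1a* and the low chymases, and for all other members the spread between 3 embryos a genotype limited the precision. Counting error added to this spread where reads were few. *Prss34* had 6 and *Mcpt8* 12 reads in hnRNP L deficient replicate 1, and *Gzmb* had 11 reads in wt replicate 1.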
